A study of Mus musculus with 58 samples.

Results

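Cold brown and warm white adipocytes are the extremes of a mouse series on how temperature history shapes fat cells. This comparison takes the 5 cold brown and the 5 warm white mRNA libraries, 10 of the 58 samples of the series and 10 of its 22 mRNA libraries, and sets them against each other over all 11603 rows of the deposited expression table. The libraries were chosen by their labels, and no measured value entered the choice. The 36 chromatin immunoprecipitation samples of the series were not analysed here.

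All mice were of the C57BL/6J strain, were fed a standard chow and carried NuTRAP, a transgene that marks ribosomes with GFP wherever a chosen Cre recombinase is expressed. Cold brown libraries came from interscapular brown adipose tissue of mice raised at 23 °C and then held at 4 °C for 1 week. Warm white libraries came from inguinal white adipose tissue of mice born and kept at 30 °C, close to the temperature at which a mouse needs no extra heat. The value columns of the warm white libraries say warm where their sample descriptions say rewarm, so they were matched by sample title. Both groups had 5 libraries. The warm brown (n = 5), cold beige (n = 4) and warm beige (n = 3) libraries are used to place genes between the extremes. These libraries also enter the fit that gives the standard errors and p-values. They came from brown or inguinal fat after the cold week, without or with 4 further weeks at 30 °C. The labels name lines in which Ucp1-Cre or Adipoq-Cre drives the tag but do not say which of them a library came from, and give neither the age nor the sex nor any pooling of animals. Depot, temperature history and line therefore cannot be told apart in this comparison. Each description calls its library a biological replicate, and the p-values measure the spread between these libraries.

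Brown adipocytes burn fatty acids and glucose to make heat. Noradrenaline from sympathetic nerves acts on beta-adrenergic receptors, raises cyclic AMP, frees fatty acids from lipid droplets and switches on Ucp1, the uncoupling protein that lets protons cross the inner mitochondrial membrane without making ATP. White adipocytes store triglyceride in 1 large droplet, sit in a collagen-rich matrix and secrete hormones such as leptin. Beige adipocytes are heat-producing cells that appear in white depots in the cold.

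Values are log2 CPM, that is counts of reads scaled for the size of the library, and differences between groups are log2 fold changes of cold brown over warm white with limma's standard error. CPM takes no account of transcript length, so levels are compared between groups for a gene and not between genes. Values at or below -5 log2 CPM are called the floor, where a library held no or almost no reads of a gene. A fold change against libraries at the floor depends on how the floor was set, so it is given with a second value computed after adding 1 CPM, and none is given where a whole group was at the floor. The depth of the libraries is unknown.

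The labels held up against marker genes. The lowest of 7 measured general adipocyte markers in any library was 8.37 log2 CPM in cold brown and 7.32 log2 CPM in warm white. Of 6 brown adipocyte markers, the median per library ran from 8.94 to 9.36 log2 CPM in cold brown, against -0.12 to 1.10 log2 CPM in warm white. Of 7 measured white adipocyte markers, the median per library ran from -3.80 to -0.48 log2 CPM in cold brown, against 5.81 to 6.32 log2 CPM in warm white. The white markers included Hoxc8, Hoxc9 and Hoxc10, which were also high in both beige groups, likewise from inguinal fat. These genes are therefore not particular to the white group. Markers were chosen with earlier results of these data known.

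Some libraries stood apart in markers of other cells. The summed level of 17 endothelial markers was 292 and 281 CPM in cold brown 1 and 5, against 102 to 111 CPM in the other 3 cold brown libraries and 136 to 183 CPM in warm white. The summed level of 14 skeletal muscle markers was 1002 CPM in warm white 2, against 44.0 to 64.7 CPM in the other 4 warm white libraries. It was 200 to 289 CPM in cold brown, where Mb made up most of it. The summed level of 11 macrophage markers was 11.3 to 19.1 CPM in cold brown and 88.1 to 152 CPM in warm white. Pre-ribosomal RNA, Rn45s, took 0.0575% to 0.0994% of the summed values in cold brown libraries and 2.06% to 2.41% in warm white libraries. In RNA captured from tissue in this way, fewer cells of a type and less RNA per cell cannot be told apart. Whether the cells behind these markers carried the tag was not tested. Rows at the floor carry traces of a batch effect that was taken out before deposit. The labels name no batch, and both batches read from the values held libraries of both groups, 2 cold brown and 3 warm white in batch 1 and 3 cold brown and 2 warm white in batch 2.

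The groups differed over most of the measured transcriptome. At a Benjamini-Hochberg adjusted p of 0.05, limma called 9933 of 11603 rows (85.6%), 4683 of them higher in cold brown (40.4% of all rows) and 5250 lower (45.2%). The values of the groups did not overlap in 8784 rows (75.7%). Counts in the gene lists below are to be read against these shares of all rows. A difference of at least 2-fold was called in 5801 rows, 2640 higher and 3161 lower, and one of at least 16-fold in 329 rows higher and 518 lower. The median log2 fold change over all rows was -0.10, and the median size without regard to sign was 1.00. Setting the libraries to a common total moved the median of all rows by -0.14, and totals computed without the 20 most abundant genes moved it by -0.18. Within batch 1 limma called 8508 rows and within batch 2 it called 9431. Of those also called in the fit of all 22 libraries, 0 had the other sign there. The libraries of each batch are part of that fit, so the same sign was largely built in.

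**Figure D1:**
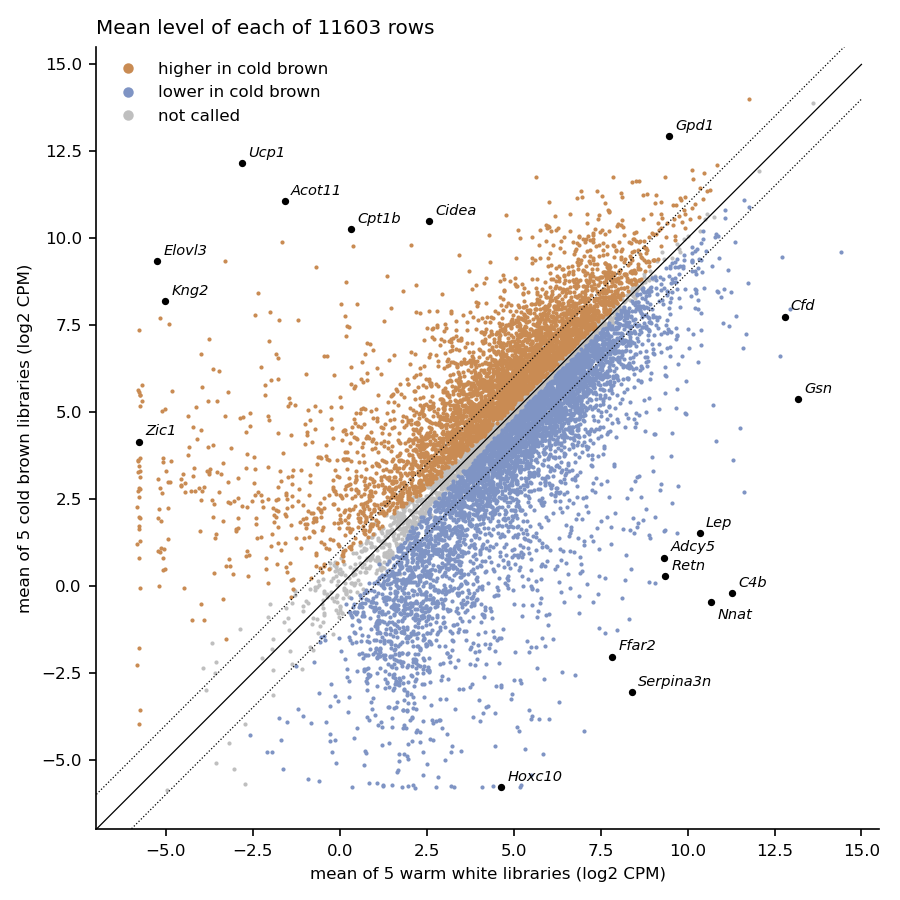
Mean level of each of the 11603 rows in the 5 cold brown libraries (vertical axis, log2 CPM) and in the 5 warm white libraries (horizontal axis, log2 CPM), coloured by limma's call at an adjusted p of 0.05. The solid line marks equal levels and the dotted lines a 2-fold difference, and the named genes far from the lines, such as Ucp1 and Elovl3 above and C4b and Nnat below, are described in the text.

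Most genes of the thermogenic list were higher in cold brown, by widely different amounts. Ucp1 (uc009mjx.2, chromosome 8, 83290348 to 83298456) had 12.43, 12.49, 11.92, 11.98 and 11.94 log2 CPM in the cold brown libraries, against -2.21, -5.59, -3.19, -1.11 and -1.99 log2 CPM in the warm white libraries. The cold brown libraries lay close together, the groups did not overlap, and 1 warm white library was at the floor. The log2 fold change was 14.97 ± 0.49 (adjusted p = 5.3e-18), and 11.88 with 1 CPM added.

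Elovl3, an elongase of very long fatty acids induced by cold (uc008hsk.1, chromosome 19, 46131897 to 46135694), had 9.19, 9.56, 9.41, 9.14 and 9.44 log2 CPM in the cold brown libraries, against -5.84, -5.84, -5.73, -2.99 and -5.84 log2 CPM in the warm white libraries. In warm white 4 of 5 libraries were at the floor, and with 1 CPM added the log2 fold change was 9.30. Dio2, the deiodinase that makes active thyroid hormone inside the cell (uc007okf.1, chromosome 12, 90724552 to 90739038), had 10.20, 10.15, 9.89, 9.55 and 9.69 log2 CPM in the cold brown libraries, against -1.14, 0.48, -0.93, -1.25 and -5.44 log2 CPM in the warm white libraries. Its log2 fold change was 11.55 ± 0.62, and 9.31 with 1 CPM added. Cidea, a lipid droplet protein of brown fat, had 10.53, 10.51, 10.47, 10.44 and 10.51 log2 CPM in the cold brown libraries, against 2.18, 3.74, 2.57, 1.71 and 2.66 log2 CPM in the warm white libraries. Cidea was above the floor in every warm white library, the groups did not overlap, and the log2 fold change was 7.92 ± 0.25 (adjusted p = 2.52e-18). Ppargc1a, the coactivator that drives mitochondrial genes, was 7.23 to 7.86 log2 CPM in cold brown, against 4.31 to 5.02 log2 CPM in warm white, a log2 fold change of 2.88 ± 0.12.

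Of the 33 measured genes of the thermogenic list 31 were higher in cold brown and 2 were lower, against 40.4% and 45.2% of all rows. In none of them did the groups overlap, which held for 75.7% of all rows. The median log2 fold change was 6.33, and 5.82 with 1 CPM added. Cpt1b, the muscle-type carnitine palmitoyltransferase that admits fatty acids to mitochondria, had 10.28, 10.27, 10.23, 10.25 and 10.29 log2 CPM in the cold brown libraries, against 0.97, 0.51, 0.45, -0.14 and -0.23 log2 CPM in the warm white libraries. That is a log2 fold change of 9.95 ± 0.19, with no library at the floor. Letmd1, a mitochondrial protein needed for brown fat function, was 10.16 to 10.32 log2 CPM in cold brown, against 5.0 to 5.19 log2 CPM in warm white (5.12 ± 0.07). Cox8b, a muscle- and brown-fat-type subunit of cytochrome oxidase, was 8.33 to 8.56 log2 CPM in cold brown, against 1.42 to 2.09 log2 CPM in warm white (6.67 ± 0.11). Gk, the glycerol kinase, was 9.29 to 9.78 log2 CPM in cold brown, against 3.10 to 3.56 log2 CPM in warm white (6.10 ± 0.11). Cyp2b10, a cytochrome P450, had 4.82, 4.81, 6.34, 6.50 and 6.40 log2 CPM in the cold brown libraries and was at the floor in every warm white library.

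The 2 thermogenic genes that were lower were a receptor and a transcription factor. Adrb3, the beta-adrenergic receptor through which noradrenaline acts on rodent fat cells, had 8.50, 7.97, 8.33, 8.55 and 8.31 log2 CPM in the cold brown libraries, against 9.73, 9.64, 10.62, 9.95 and 10.55 log2 CPM in the warm white libraries. The groups did not overlap, and cold brown was lower by a log2 fold change of -1.77 ± 0.20 (adjusted p = 2.07e-08). Lhx8, a transcription factor reported as a brown fat marker, was 1.94 to 2.92 log2 CPM in cold brown, against 3.12 to 3.81 log2 CPM in warm white (-1.04 ± 0.16).

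**Figure D2:**
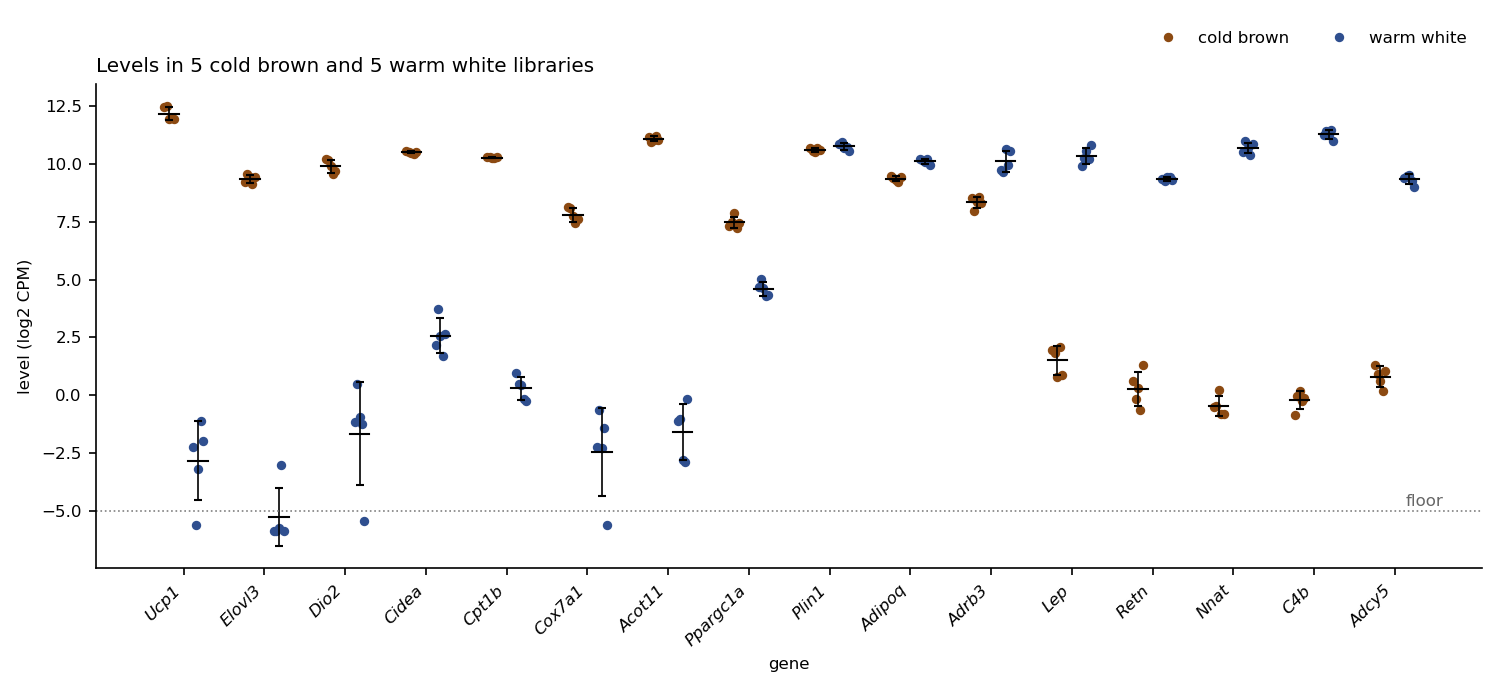
Level (log2 CPM) of 16 genes in each of the 5 cold brown libraries (brown, left of each pair) and 5 warm white libraries (blue, right), with the mean and standard deviation in black. The dotted line is the floor at -5 log2 CPM, and Plin1 is the gene shown whose groups overlap.

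The largest differences upward took in enzymes, receptors and secreted proteins. Among genes with at least 1 warm white library above the floor, the widest gaps after Ucp1 and Elovl3 belonged to Kng2, Lgr6, Acot11, Slc27a2 and Dhrs9. Acot11, an acyl-CoA thioesterase also known as a brown fat inducible gene (uc008tyw.2, chromosome 4, 106744555 to 106805007), had 11.17, 10.95, 11.04, 11.19 and 11.02 log2 CPM in the cold brown libraries, against -1.10, -1.02, -2.81, -2.87 and -0.15 log2 CPM in the warm white libraries. Its log2 fold change was 12.66 ± 0.43, and 10.59 with 1 CPM added. Slc27a2, a very-long-chain acyl-CoA synthetase and fatty acid transporter, had 9.16, 9.33, 9.44, 9.31 and 9.45 log2 CPM in the cold brown libraries, against -1.50, -1.81, -5.76, -1.60 and -5.80 log2 CPM in the warm white libraries. Of its warm white libraries 2 were at the floor, and the change with 1 CPM added was 9.09.

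Kng2, a kininogen and so a precursor of kinin peptides (uc007ysy.1, chromosome 16, 22985852 to 23029101), had 8.48, 8.51, 8.0, 8.16 and 7.82 log2 CPM in the cold brown libraries and was at the floor in 4 of 5 warm white libraries. Lgr6, a receptor for R-spondins (uc007csq.1, chromosome 1, 134983300 to 135105374), had 8.20, 8.24, 7.60, 7.40 and 7.09 log2 CPM in cold brown and was likewise at the floor in 4 warm white libraries. With 1 CPM added their log2 fold changes were 8.11 and 7.66. Dhrs9, a short-chain dehydrogenase that acts on retinol, had 6.77, 7.26, 8.02, 7.93 and 7.61 log2 CPM in cold brown, and its change with 1 CPM added was 7.41. Fabp3, the heart-type fatty acid binding protein, was 8.31 to 8.54 log2 CPM in cold brown, against -5.65 to -0.56 log2 CPM in warm white. Me3, the mitochondrial NADP-dependent malic enzyme, was 6.05 to 7.45 log2 CPM in cold brown, against -5.24 to -2.09 log2 CPM in warm white. The guanine nucleotide exchange factor Arhgef19 was 5.25 to 5.90 log2 CPM in cold brown, against -5.99 to -1.05 log2 CPM in warm white, and the transcript AK040737 was 6.67 to 7.48 log2 CPM in cold brown, against -5.79 to -1.79 log2 CPM in warm white.

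Of the 33 rows called higher in cold brown whose warm white libraries were all at the floor, 3 had the highest levels. A530050N04Rik, which has no described role in the annotation used here, had 7.15, 7.50, 7.48, 7.32 and 7.29 log2 CPM in the cold brown libraries. Besides Cyp2b10 the other was Fam131c, with 5.22, 5.68, 5.54, 5.88 and 5.83 log2 CPM in cold brown.

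Genes of mitochondrial respiration were higher in cold brown in nearly all cases. In complex I, which takes electrons from NADH, 36 of 37 measured nuclear genes were higher and 0 were lower, with a median log2 fold change of 1.97 against -0.10 over all rows. Ndufa9 had 9.37, 9.28, 9.10, 9.15 and 9.20 log2 CPM in the cold brown libraries, against 6.22, 6.18, 6.05, 6.05 and 5.86 log2 CPM in the warm white libraries, a log2 fold change of 3.15 ± 0.09. Ndufa10 followed at 3.77 ± 0.12, Ndufs3 at 3.15 ± 0.09 and Ndufa8 at 2.58 ± 0.07, and in none of these did the groups overlap. In complexes II to V with cytochrome c, 36 of 38 genes were higher and 2 were lower, with a median of 1.99. Uqcrc2, a core subunit of complex III, was 10.26 to 10.36 log2 CPM in cold brown, against 5.77 to 6.29 log2 CPM in warm white (4.33 ± 0.11), and Cyc1, the cytochrome of that complex, was 10.04 to 10.11 log2 CPM in cold brown, against 6.86 to 7.39 log2 CPM in warm white (2.94 ± 0.09). Cycs, the mobile electron carrier cytochrome c, had 6.45, 6.61, 6.48, 6.38 and 6.43 log2 CPM in the cold brown libraries, against 2.98, 2.66, 2.77, 2.85 and 2.87 log2 CPM in the warm white libraries, a log2 fold change of 3.64 ± 0.10.

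The 2 exceptions sat in ATP synthase. Atpif1, the inhibitor of ATP synthase, was 2.87 to 3.28 log2 CPM in cold brown, against 3.92 to 4.21 log2 CPM in warm white, a log2 fold change of -1.01 ± 0.10. Atp5g3, a gene for the c subunit of its rotor, was 7.61 to 7.84 log2 CPM in cold brown, against 7.87 to 8.24 log2 CPM in warm white (-0.32 ± 0.10, adjusted p = 0.00336).

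The promoters of Dio2 and Cycs are shown because both hold the full cAMP response element, the letters TGACGTCA that bind CREB-type factors downstream of noradrenaline. The element is its own reverse complement, so both strands are covered by 1 search. The windows run from 250 bases before to 50 bases after the RefSeq start in GRCm38.p6, Dio2 at chr12:90738989-90739288, minus strand and Cycs at chr6:50566520-50566819, minus strand, with the element in capitals. Relative to the start, the single match begins at -95 in Dio2 and at -169 in Cycs. Of the 8620 tested genes with such a window 3.72% hold the element, as do 3.89% of those at least 2-fold higher in cold brown and 4.53% of those not called. Over all 32851 windows of that length the share is 1.79%. The match describes letters, and binding was not measured.
Dio2: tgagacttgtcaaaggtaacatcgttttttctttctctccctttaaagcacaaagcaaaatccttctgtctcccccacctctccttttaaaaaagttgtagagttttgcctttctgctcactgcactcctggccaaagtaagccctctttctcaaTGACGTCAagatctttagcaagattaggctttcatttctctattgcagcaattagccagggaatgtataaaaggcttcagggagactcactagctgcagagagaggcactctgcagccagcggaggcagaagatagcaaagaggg
Cycs: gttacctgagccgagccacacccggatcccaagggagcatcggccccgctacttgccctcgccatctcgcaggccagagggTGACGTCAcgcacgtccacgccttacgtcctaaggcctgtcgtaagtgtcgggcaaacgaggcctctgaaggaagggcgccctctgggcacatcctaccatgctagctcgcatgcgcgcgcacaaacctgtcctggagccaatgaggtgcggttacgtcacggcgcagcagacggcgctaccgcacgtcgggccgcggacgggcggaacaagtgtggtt

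Upstream of the respiratory chain, all 19 measured genes of the tricarboxylic acid cycle were higher in cold brown, with a median log2 fold change of 2.90. In none did the groups overlap, which held for 75.7% of all rows. Idh3a, the catalytic subunit of NAD-dependent isocitrate dehydrogenase, had 11.21, 11.21, 11.11, 11.12 and 11.08 log2 CPM in the cold brown libraries, against 7.08, 6.94, 6.65, 6.80 and 6.58 log2 CPM in the warm white libraries (4.34 ± 0.10). Idh3b was higher by 3.36 ± 0.08 and Mdh2, malate dehydrogenase, by 2.47 ± 0.06. The mitochondrial ribosome, which makes the subunits encoded by mitochondrial DNA, had 41 of 42 genes higher and 0 lower (median 1.49). Mrps2 was higher by 3.62 ± 0.12, Mrpl16 by 2.61 ± 0.09, Mrpl10 by 2.52 ± 0.07 and Mrps23 by 2.04 ± 0.06. Of 56 genes of cytosolic ribosomal proteins 23 were higher and 26 lower, with a median of -0.17. These counts were near the 40.4% higher and 45.2% lower of all rows. Members differed in both directions, with Rpl7a at 2.06 ± 0.16 on one side and Rps21 at -1.40 ± 0.12 and Rps24 at -1.26 ± 0.11 on the other. Many of these genes have near-identical pseudogenes, so their counts are uncertain.

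Fatty acid oxidation had 27 of 30 genes higher and 2 lower, with a median of 2.36. Etfdh, which passes electrons from fatty acid oxidation to the respiratory chain, had 10.42, 10.47, 10.34, 10.38 and 10.35 log2 CPM in the cold brown libraries, against 5.98, 6.26, 5.84, 5.97 and 5.57 log2 CPM in the warm white libraries (4.47 ± 0.11). Slc25a20, the carnitine-acylcarnitine carrier, was 9.73 to 9.86 log2 CPM in cold brown, against 5.50 to 5.93 log2 CPM in warm white (4.07 ± 0.08), and Acads, the short-chain acyl-CoA dehydrogenase, was 9.45 to 9.63 log2 CPM in cold brown, against 6.68 to 6.83 log2 CPM in warm white (2.81 ± 0.06). The lower members were Acaa1a, a peroxisomal thiolase, at -0.92 ± 0.11, and Cpt1a, the liver-type counterpart of Cpt1b, at -0.86 ± 0.15. The peroxisome list was mixed, with 24 of 32 higher and 7 lower. Its transporters for fatty acids parted, with Abcd3 at 9.78 to 10.02 log2 CPM in cold brown, against 6.47 to 6.81 log2 CPM in warm white (3.18 ± 0.10) and Abcd2 at 4.77 to 5.28 log2 CPM in cold brown, against 9.86 to 10.01 log2 CPM in warm white (-5.0 ± 0.11). Crat, carnitine acetyltransferase, was higher by 3.21 ± 0.11, and Pex14 and Pex3, factors of peroxisome assembly, by 1.86 ± 0.07 and 1.83 ± 0.09. Far1, a reductase of ether lipid synthesis, was lower at -2.28 ± 0.10, as were the membrane protein genes Pxmp2 at -2.38 ± 0.12 and Pex26 at -1.35 ± 0.10.

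Genes of glucose use were mostly higher, with 21 of 27 genes of glycolysis and glucose uptake higher, 3 lower and a median of 2.48. Gpi1, which opens glycolysis after hexokinase, was 9.71 to 10.19 log2 CPM in cold brown, against 5.73 to 6.14 log2 CPM in warm white (4.0 ± 0.11). Eno1, enolase, was 8.63 to 9.07 log2 CPM in cold brown, against 4.78 to 5.25 log2 CPM in warm white (3.84 ± 0.09), and Pgam1, phosphoglycerate mutase, was 9.52 to 9.68 log2 CPM in cold brown, against 6.37 to 6.52 log2 CPM in warm white (3.18 ± 0.08). Pdk4, the kinase that shuts pyruvate dehydrogenase, was 11.12 to 11.46 log2 CPM in cold brown, against 6.75 to 7.24 log2 CPM in warm white (4.42 ± 0.11). Lower members were Pfkfb2 at -0.90 ± 0.08, Eno3, the muscle enolase, at -0.87 ± 0.20, and the glucose transporter Slc2a1 at -0.32 ± 0.12 (adjusted p = 0.022). The Slc2a1 call was lost after leaving out cold brown 5 (adjusted p = 0.0638) or warm white 1 (0.0538), and within batch 1 (0.192) and batch 2 (0.121). Eno3 was highest, at 4.10 log2 CPM, in warm white 2, the library with the high muscle markers. Of 20 genes of branched-chain amino acid breakdown, another fuel of brown fat, 16 were higher and 2 lower (median 1.13). Mcee was higher by 2.71 ± 0.07 and the dehydrogenase subunits Bckdha and Bckdhb by 2.39 ± 0.07 and 1.89 ± 0.06, with Acad8 at 1.64 ± 0.06. Bcat2, the transaminase that takes the first step, was lower at -1.09 ± 0.09, and Ivd was lower at -0.36 ± 0.06.

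Genes of lipid synthesis were mostly higher too. Of 18 genes of fatty acid synthesis 15 were higher and 2 lower, with a median of 1.53. Elovl6, which elongates palmitate, had 11.95, 11.96, 11.62, 11.60 and 11.66 log2 CPM in the cold brown libraries, against 5.62, 5.53, 5.81, 5.56 and 5.64 log2 CPM in the warm white libraries, a log2 fold change of 6.13 ± 0.10 (adjusted p = 5.26e-23). Tkt and G6pdx, enzymes of the pentose phosphate pathway that supplies NADPH, were higher by 3.20 ± 0.11 and 2.53 ± 0.13, and Acacb, an acetyl-CoA carboxylase, by 3.12 ± 0.13. Fads1, a desaturase of polyunsaturated fatty acids, went the other way at 1.80 to 2.26 log2 CPM in cold brown, against 6.79 to 6.94 log2 CPM in warm white (-4.80 ± 0.21). Srebf1, the transcription factor of lipogenesis, was also lower, at 8.33 to 8.64 log2 CPM in cold brown, against 9.51 to 10.22 log2 CPM in warm white (-1.40 ± 0.12). Of 12 genes of triglyceride synthesis 11 were higher. Gpd2, the mitochondrial glycerol phosphate dehydrogenase, had 10.97 to 11.20 log2 CPM in cold brown, against 5.78 to 6.25 log2 CPM in warm white (5.03 ± 0.10), its cytosolic partner Gpd1 was higher by 3.47 ± 0.12, and Agpat2, an acyltransferase whose loss causes lipodystrophy, by 4.22 ± 0.16. Agpat9 was lower at -3.64 ± 0.12.

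Cholesterol synthesis had 15 of 22 genes higher and 4 lower, with a median of 0.85. Nsdhl was higher by 3.84 ± 0.21, Fdps by 2.89 ± 0.17 and Dhcr7 by 2.37 ± 0.09. The lower members differed by less than 2-fold, among them Mvk at -0.43 ± 0.10, Ebp at -0.23 ± 0.08 and the regulator Srebf2 at -0.26 ± 0.09. The Srebf2 call was lost without warm white 5 (adjusted p = 0.0572) and within batch 1 (0.0615) and batch 2 (0.12). Of 15 genes of heme and iron handling, which serve the cytochromes, 11 were higher and 2 lower. The transferrin receptor Tfrc was 8.20 to 8.65 log2 CPM in cold brown, against 4.62 to 5.86 log2 CPM in warm white (3.15 ± 0.25), and the heme enzymes Uros, Urod and Fech were higher by 2.14 ± 0.09, 1.90 ± 0.08 and 1.71 ± 0.07. Cpox, also a heme enzyme, was lower at -1.51 ± 0.12, and the ferritin light chain Ftl1 at -0.22 ± 0.08 (adjusted p = 0.0154), with overlapping groups.

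**Figure D3:**
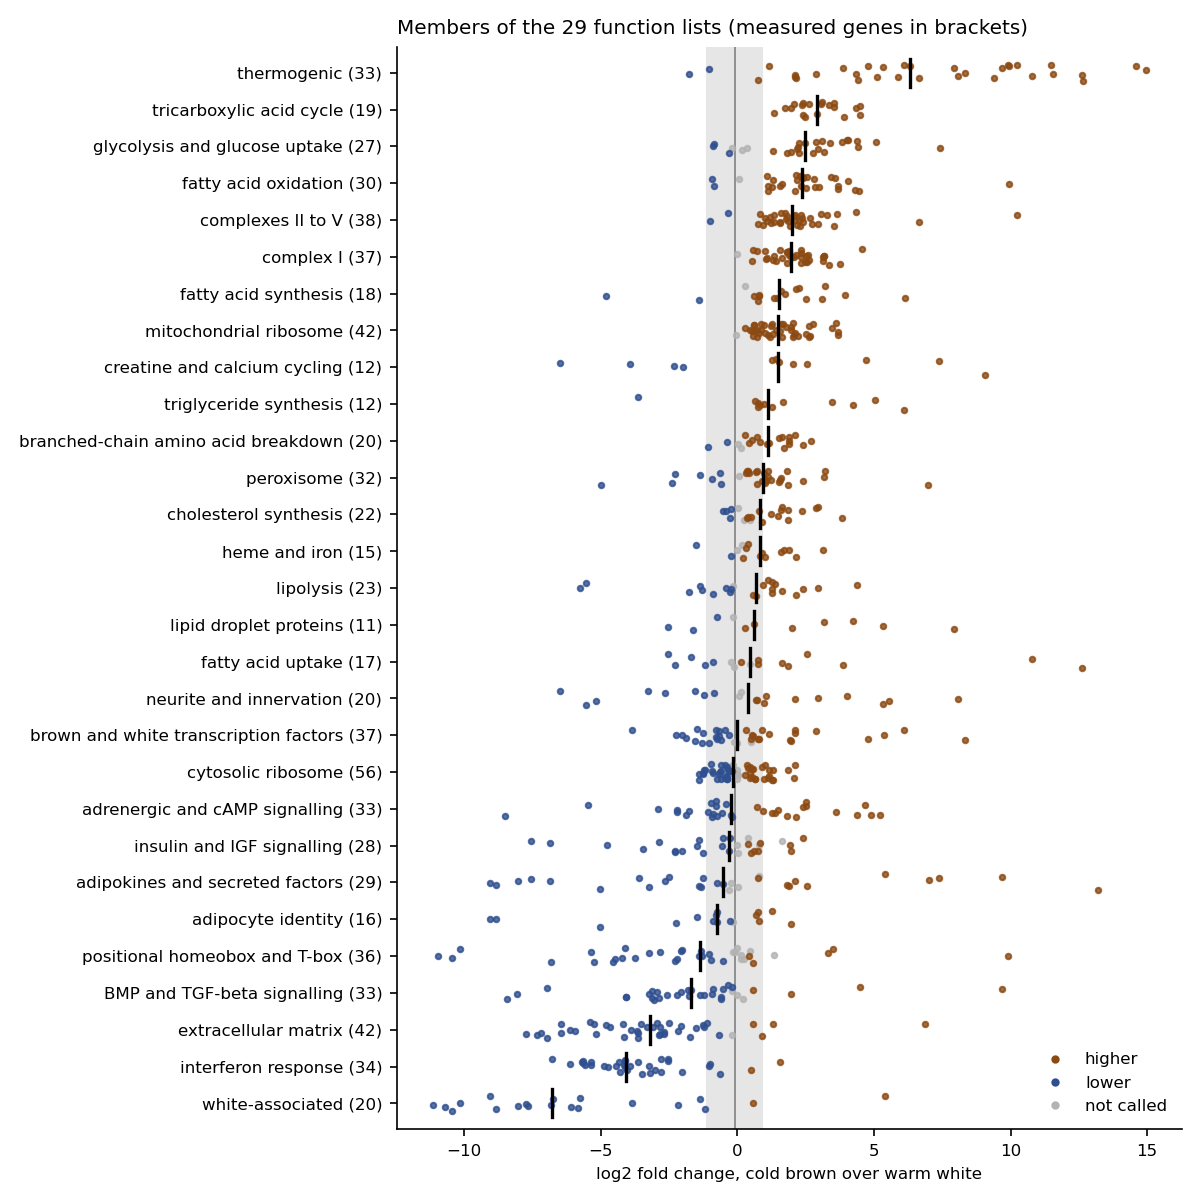
Log2 fold change of cold brown over warm white for each measured member of 29 function lists, coloured by limma's call, with the list's median as a black bar and the number of measured genes in brackets. The grey band spans the interquartile range of all 11603 rows around their median of -0.10, and list medians run from 6.33 for the thermogenic list to -6.79 for the white-associated list, with members at the floor included.

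At the lipid droplet the direction depended on the protein. Of 11 droplet genes 7 were higher and 3 lower. Plin5, the perilipin that ties droplets to mitochondria, was 8.86 to 9.06 log2 CPM in cold brown, against 4.34 to 5.29 log2 CPM in warm white (4.24 ± 0.15), and Plin2 was 9.97 to 10.08 log2 CPM in cold brown, against 6.63 to 7.30 log2 CPM in warm white (3.17 ± 0.10). Clstn3, whose brown fat isoform limits droplet growth, had 9.0 to 9.14 log2 CPM in cold brown, against 3.55 to 3.93 log2 CPM in warm white (5.34 ± 0.10). Plin4 was 8.40 to 8.69 log2 CPM in cold brown, against 10.88 to 11.27 log2 CPM in warm white (-2.53 ± 0.09), Hilpda, a hypoxia-induced lipase inhibitor, was lower at -1.63 ± 0.16, and Cidec, a droplet fusion protein, at -0.74 ± 0.08. Plin1, the main perilipin of fat cells, was 10.50 to 10.68 log2 CPM in cold brown, against 10.53 to 10.93 log2 CPM in warm white (-0.15 ± 0.08, adjusted p = 0.0735), with a 95% interval of -0.31 to 0.01. With libraries set to a common total its value was -0.29 (adjusted p = 0.00116), and it also passed after quantile normalization, with totals without the 20 most abundant genes and without warm white 5.

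Of 23 genes of lipolysis and its control 13 were higher and 9 lower. Members that were higher included the G protein Gnas at 2.41 ± 0.08, the adenylate cyclase Adcy3 at 4.36 ± 0.10, the protein kinase A subunit Prkaca at 1.36 ± 0.06 and the monoglyceride lipase Mgll at 1.29 ± 0.07. Receptors known to restrain lipolysis were found on both sides. The adenosine receptor Adora1 was higher by 0.95 ± 0.10 (adjusted p = 8.76e-09). Hcar1, the lactate receptor, had 3.05, 2.73, 1.69, 2.40 and 2.75 log2 CPM in the cold brown libraries, against 8.33, 8.05, 8.77, 8.21 and 7.98 log2 CPM in the warm white libraries (-5.74 ± 0.22). Hcar2, the receptor for hydroxybutyrate, was -0.53 to 0.58 log2 CPM in cold brown, against 4.59 to 6.07 log2 CPM in warm white (-5.53 ± 0.26). Npr3, the clearance receptor for natriuretic peptides, was 8.70 to 9.26 log2 CPM in cold brown, against 9.76 to 11.18 log2 CPM in warm white (-1.38 ± 0.25).

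Adenylate cyclases turn the receptor signal into cyclic AMP, and the members measured differed in both directions. Adcy3 had 10.42, 10.42, 10.44, 10.17 and 10.33 log2 CPM in the cold brown libraries, against 5.96, 6.30, 5.93, 5.73 and 6.05 log2 CPM in the warm white libraries. Adcy5 had 1.32, 0.91, 0.60, 0.18 and 1.05 log2 CPM in the cold brown libraries, against 9.39, 9.48, 9.53, 9.26 and 9.0 log2 CPM in the warm white libraries, a log2 fold change of -8.52 ± 0.18. The log2 ratio of Adcy3 to Adcy5, in CPM and without regard to length, was 9.10 to 9.99 in cold brown libraries and -3.60 to -2.95 in warm white libraries. Of the other cyclases in the list, Adcy10 was higher by 5.20 ± 0.26 and Adcy9 by 0.93 ± 0.07, and Adcy7 was lower at -2.21 ± 0.31, Adcy4 at -0.92 ± 0.29 and Adcy6 at -0.56 ± 0.09. The Adcy4 call was lost within batch 1 (-0.58, adjusted p = 0.228) and after quantile normalization (-0.02, adjusted p = 0.94). In the whole list of adrenergic and cAMP signalling 15 of 33 genes were higher and 18 lower, against 40.4% and 45.2% of all rows. Besides Gnas and Adcy3, Adra1a, an alpha-adrenergic receptor, was higher by 2.51 ± 0.07, and Pde4a, a phosphodiesterase that breaks cyclic AMP down, by 4.88 ± 0.10. The inhibitory G protein Gnai1 was lower at -2.92 ± 0.11, the receptor-silencing Arrb1 at -2.20 ± 0.09 and the transcription factor Creb3l1 at -5.47 ± 0.40.

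The exchange of Adcy3 and Adcy5 was 1 of 8 among 19 measured pairs of related genes in which the members were called in opposite directions. In 9 pairs both were higher, in 0 both were lower, and in 18 the within-library log2 ratio did not overlap between groups, with Dgat1 and Dgat2 as the exception. The pairs were written down with earlier results of these data known, so the counts describe them and test nothing. For Cpt1b over Cpt1a the log2 ratio was 5.78 to 6.73 in cold brown and -5.19 to -3.50 in warm white. For Cidea over Cidec it was 0.34 to 0.57 in cold brown and -9.10 to -7.21 in warm white. The fatty acid binding protein Fabp4, the abundant form of fat cells, was lower at -0.88 ± 0.11, opposite to Fabp3. The transporter Slc27a1 was lower at -1.69 ± 0.07, opposite to Slc27a2, and the insulin-regulated Slc2a4 was higher at 1.96 ± 0.07, opposite to Slc2a1. Ebf2, a brown fat determination factor, was higher at 1.18 ± 0.08, while Ebf1 was lower at -0.32 ± 0.06. The thyroid hormone receptors were higher for Thrb at 0.55 ± 0.18 (adjusted p = 0.00817) and lower for Thra at -1.04 ± 0.08.

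In some pairs both members were higher by different amounts. Cox7a1 was 7.43 to 8.12 log2 CPM in cold brown, against -5.60 to -0.65 log2 CPM in warm white (10.24 ± 0.53, and 7.46 with 1 CPM added), and Cox7a2 was higher by 2.06 ± 0.12. Cox8b at 6.67 ± 0.11 stood against Cox8a at 1.73 ± 0.08, Esrrg, an estrogen-related receptor, at 8.33 ± 0.60 (6.03 with 1 CPM added) against Esrra at 2.11 ± 0.12, and Ldhb at 4.37 ± 0.13 against Ldha at 1.30 ± 0.10. Acsl5 at 3.59 ± 0.09 stood against Acsl1 at 1.09 ± 0.10. The differences between members of a pair were not tested. Of the hexokinases, Hk1 was higher at 1.82 ± 0.16, while Hk2 missed the threshold (0.34 ± 0.16, adjusted p = 0.0505). Hk2 passed, with a positive value, without cold brown 4 (adjusted p = 0.0172), without warm white 2 (0.0333) or without warm white 5 (0.0193).

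Creatine and calcium cycling, both proposed as heat sources beside Ucp1, had 8 of 12 genes higher and 4 lower. Alpl, the alkaline phosphatase proposed to act in a creatine cycle, had 6.75, 6.92, 6.96, 7.12 and 7.44 log2 CPM in the cold brown libraries, against -1.60, -1.91, -1.44, -2.94 and -2.30 log2 CPM in the warm white libraries (9.08 ± 0.30). Ckb, the brain-type creatine kinase, was 7.58 to 8.16 log2 CPM in cold brown, against 2.57 to 3.83 log2 CPM in warm white (4.70 ± 0.18), Itpr1, a calcium release channel, was higher by 2.56 ± 0.07 and Mcu, the mitochondrial calcium uniporter, by 2.05 ± 0.09. Gamt, the last enzyme of creatine synthesis, was -0.56 to 0.56 log2 CPM in cold brown, against 3.14 to 4.02 log2 CPM in warm white (-3.93 ± 0.23), and the mitochondrial calcium exchanger Slc8b1 was lower at -1.98 ± 0.14. The muscle calcium pump Atp2a1 was lower too (-2.31 ± 0.34), with 7.18 log2 CPM in warm white 2, the library with 1002 CPM of summed muscle markers. Without that library it stood at -1.79 (adjusted p = 3.38e-10). The muscle calcium channel Ryr1 had 1.32, 6.04, -0.96, -0.32 and -1.84 log2 CPM in warm white, highest in the same library, and was at the floor in every cold brown library. The part of muscle RNA in both was not tested.

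Hormones of white fat were lower in cold brown. Lep, leptin (uc009bcv.1, chromosome 6, 29060221 to 29073876), had 1.98, 1.83, 0.80, 2.08 and 0.90 log2 CPM in the cold brown libraries, against 9.92, 10.25, 10.56, 10.19 and 10.80 log2 CPM in the warm white libraries. The lowest warm white library lay far above the highest cold brown library, and the log2 fold change was -8.83 ± 0.33 (adjusted p = 5.08e-17). Retn, resistin, had 0.62, -0.17, 0.31, -0.62 and 1.29 log2 CPM in the cold brown libraries, against 9.35, 9.24, 9.44, 9.43 and 9.30 log2 CPM in the warm white libraries (-9.07 ± 0.26). Cfd, the complement protease adipsin, was 7.18 to 8.30 log2 CPM in cold brown, against 12.64 to 13.09 log2 CPM in warm white (-5.05 ± 0.17). Adipoq, adiponectin, was lower by much less, with 9.48, 9.39, 9.28, 9.23 and 9.41 log2 CPM in the cold brown libraries, against 10.22, 10.14, 10.06, 10.19 and 9.96 log2 CPM in the warm white libraries (-0.76 ± 0.14, adjusted p = 2.43e-05).

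Of 16 genes of general adipocyte identity 5 were higher and 10 lower, with a median of -0.75. Slc2a4 was higher, as were Aqp7, the glycerol channel, at 1.28 ± 0.10, Cd36, a fatty acid receptor, at 0.74 ± 0.10, and Pnpla2, adipose triglyceride lipase, at 0.70 ± 0.10. The receptor partner Rxra was lower at -2.23 ± 0.07. Of 20 white-associated genes 18 were lower and 2 higher, with a median of -6.79, and -5.07 with 1 CPM added. Nnat, an imprinted proteolipid, had -0.52, -0.48, 0.25, -0.80 and -0.82 log2 CPM in the cold brown libraries, against 10.52, 10.97, 10.69, 10.39 and 10.84 log2 CPM in the warm white libraries (-11.16 ± 0.30). Ccdc80, a secreted matrix protein, had 3.26 to 4.04 log2 CPM in cold brown, against 10.89 to 11.55 log2 CPM in warm white (-7.68 ± 0.17). The 2 higher members were Trim66 at 2.37 to 3.65 log2 CPM in cold brown, against -5.37 to -1.38 log2 CPM in warm white (5.41 ± 0.56, and 2.82 with 1 CPM added) and Rb1, the retinoblastoma gene, at 6.97 to 7.05 log2 CPM in cold brown, against 6.20 to 6.57 log2 CPM in warm white (0.57 ± 0.08).

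Among 29 adipokines and other secreted factors 10 were higher and 15 lower. Igf1, insulin-like growth factor, had 1.79, 1.31, 1.23, 0.75 and 1.82 log2 CPM in the cold brown libraries, against 9.21, 8.77, 8.97, 8.97 and 8.69 log2 CPM in the warm white libraries (-7.54 ± 0.23), and its binding protein gene Igfbp4 was 2.40 to 3.54 log2 CPM in cold brown, against 9.58 to 9.87 log2 CPM in warm white (-6.86 ± 0.19). Apoe was 7.49 to 8.01 log2 CPM in cold brown, against 11.15 to 11.57 log2 CPM in warm white (-3.62 ± 0.12). Nampt, which makes NAD precursors, was higher by 1.87 ± 0.09. The kininogen Kng1 was 1.89 to 2.47 log2 CPM in cold brown, against -5.97 to -3.24 log2 CPM in warm white (2.43 with 1 CPM added), and Ptgds, a prostaglandin synthase, was 2.44 to 4.07 log2 CPM in cold brown, against -5.47 to -2.10 log2 CPM in warm white (3.27 with 1 CPM added). Kng1 and Kng2 are near copies of each other, so their reads may be split between them.

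Insulin and IGF signalling had 8 of 28 genes higher and 15 lower. Members that were lower included the docking protein Irs1, at 6.48 to 6.84 log2 CPM in cold brown, against 9.22 to 9.81 log2 CPM in warm white (-2.88 ± 0.11) and the inhibitory adaptor Grb10, at 1.46 to 1.98 log2 CPM in cold brown, against 6.24 to 6.70 log2 CPM in warm white (-4.78 ± 0.13). Members that were higher included the kinases Mtor at 2.40 ± 0.08, Gsk3a at 1.92 ± 0.09 and Pdpk1 at 0.84 ± 0.07.

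The largest differences downward were led by complement and acute-phase genes. C4b, complement component 4 (uc008cdk.2, chromosome 17, 34728139 to 34743902), had -0.85, -0.03, 0.18, -0.23 and -0.11 log2 CPM in the cold brown libraries, against 11.26, 11.43, 11.23, 11.46 and 10.99 log2 CPM in the warm white libraries. The log2 fold change was -11.48 ± 0.21 (adjusted p = 4.51e-22). A near-identical copy, C4a, lies beside it, so reads may be split between them. Serpina3n, a protease inhibitor of the acute phase, had -1.75, -5.68, -2.15, -4.01 and -1.69 log2 CPM in the cold brown libraries, against 8.31, 8.14, 8.18, 8.79 and 8.56 log2 CPM in the warm white libraries (-11.45 ± 0.59, and -8.17 with 1 CPM added). C2, a further complement protease precursor, had -3.57 to -1.43 log2 CPM in cold brown, against 7.43 to 8.13 log2 CPM in warm white (-9.87 ± 0.34). Ffar2, a receptor for short-chain fatty acids, had -2.92 to -0.83 log2 CPM in cold brown, against 7.50 to 8.33 log2 CPM in warm white (-9.87 ± 0.34).

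Others of the 12 largest were Prtn3, a serine protease, at -5.84 to -2.46 log2 CPM in cold brown, against 6.77 to 7.32 log2 CPM in warm white, Wfdc21 at -5.81 to -3.18 log2 CPM in cold brown, against 5.53 to 6.14 log2 CPM in warm white, and Trp63, a p53 family transcription factor, at -5.95 to -2.41 log2 CPM in cold brown, against 4.18 to 6.24 log2 CPM in warm white. Prr16, Cdsn, a desmosome protein of skin, St6galnac5, a sialyltransferase, and Plppr3 completed them. Prr16 was at the floor in 4 cold brown libraries. With 1 CPM added the log2 fold changes of these last 4 ran from -6.13 for St6galnac5 to -5.50 for Prr16. Gnal, an olfactory-type G protein, had 5.61, 5.76, 5.79, 4.75 and 4.17 log2 CPM in the warm white libraries and was at the floor in every cold brown library. It was 1 of 18 rows called lower whose cold brown libraries were all at the floor, and the 3 with the highest warm white level were Gnal, Hoxa10 and Hoxc10.

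Genes of position along the body formed a pattern of their own. Hox genes mark the head-to-tail position of a tissue, with low paralog numbers toward the head and high ones toward the tail. Interscapular fat lies at the shoulders and inguinal fat at the hind limbs. All 20 measured Hox genes are given here, more than the naming rule took, since the order along the clusters was seen in the values. In paralog groups 2 to 5, 4 of 9 genes were higher in cold brown, 2 were lower and 3 did not pass, with a median log2 fold change of 0.24. In paralog groups 6 to 10 all 11 were lower, with a median of -5.24, floor values included.

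In the HoxA cluster the sign turned between groups 5 and 7. Hoxa3 did not pass (0.14 ± 0.30), Hoxa4 was 3.42 to 3.82 log2 CPM in cold brown, against -0.90 to 1.18 log2 CPM in warm white (3.49 ± 0.28) and Hoxa5 was 4.65 to 4.85 log2 CPM in cold brown, against 0.64 to 1.87 log2 CPM in warm white (3.31 ± 0.18). Hoxa7 was lower at -0.52 ± 0.18, Hoxa9 at -4.54 ± 0.25, and Hoxa10 had 5.60, 5.13, 5.04, 4.93 and 5.16 log2 CPM in warm white and was at the floor in every cold brown library. The HoxC cluster turned between groups 5 and 6, although the Hoxc4 call was lost without any 1 of 5 libraries (cold brown 4 and 5, warm white 1, 2 and 4) with adjusted p of 0.0585 to 0.0722. Hoxc4 was higher at 0.43 ± 0.17 (adjusted p = 0.0245) and Hoxc5 at 0.57 ± 0.10, whereas Hoxc6 was lower at -1.39 ± 0.12 and Hoxc8 at -6.83 ± 0.56. For Hoxc9 every cold brown library was at the floor, against 4.73, 4.49, 4.43, 4.12 and 4.19 log2 CPM in warm white. For Hoxc10 every cold brown library was again at the floor, against 4.92, 4.57, 4.73, 4.67 and 4.35 log2 CPM in warm white.

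In the HoxB cluster Hoxb2 (0.24 ± 0.19) and Hoxb3 (0.14 ± 0.18) did not pass, Hoxb4 was lower at -1.35 ± 0.14, and Hoxb6 and Hoxb7 at -4.49 ± 0.48 and -5.34 ± 0.37. In HoxD all 3 were lower, Hoxd3 at -2.22 ± 0.32, Hoxd8 at -2.04 ± 0.18 and Hoxd9 at -5.24 ± 0.45. Outside the Hox clusters, Zic1, a zinc finger factor of dorsal and anterior tissue, had 3.80, 4.30, 4.25, 4.16 and 4.21 log2 CPM in cold brown and was at the floor in every warm white library. Of the whole list of 36 positional genes 23 were lower and 5 higher, and those higher were Zic1, Hoxa4, Hoxa5, Hoxc4 and Hoxc5. After quantile normalization the number higher was 9.

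**Figure D4:**
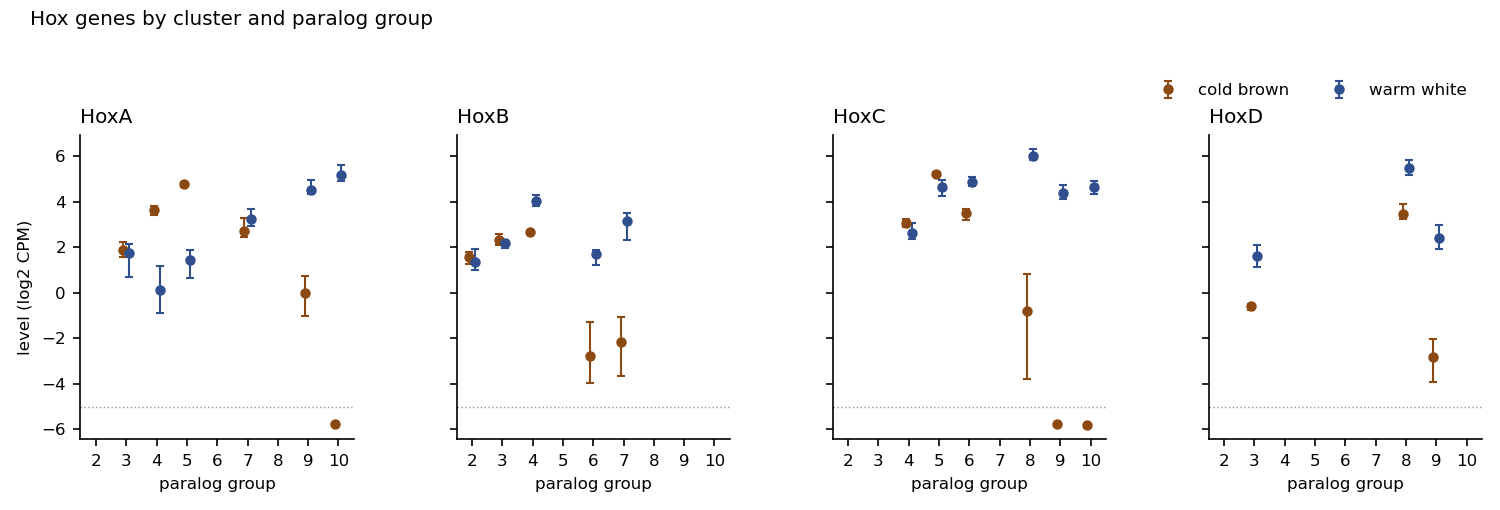
Level (log2 CPM) of the 20 measured Hox genes by paralog group, 1 panel per cluster, in the 5 cold brown libraries (brown, left of each pair) and the 5 warm white libraries (blue, right). Points are means and bars run from the lowest to the highest library, and in HoxA and HoxC the cold brown points fall to the floor (dotted) by group 10 while the warm white points do not.

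Of 37 transcription factors tied to brown or white fate 17 were higher and 17 lower, with a median of -0.01. The shares over all rows were 40.4% higher and 45.2% lower. Ppara, the nuclear receptor of fatty acid oxidation, had 10.09, 9.76, 10.07, 9.94 and 10.10 log2 CPM in the cold brown libraries, against 5.06, 5.54, 4.92, 5.25 and 5.20 log2 CPM in the warm white libraries (4.80 ± 0.14). Rxrg, a retinoid receptor, was higher by 2.09 ± 0.12, Esrra by 2.11 ± 0.12 and Ppargc1b, the relative of Ppargc1a, by 1.95 ± 0.16. Nrip1, a corepressor of oxidative genes, had 4.31, 4.54, 4.94, 4.89 and 4.72 log2 CPM in the cold brown libraries, against 8.33, 8.87, 8.27, 8.80 and 8.37 log2 CPM in the warm white libraries (-3.85 ± 0.14). Twist1 was lower at -2.02 ± 0.09 and Tle1 at -1.55 ± 0.09. Pparg and Cebpa, the pair that drives fat cell formation, are named after their values were seen, since they parted. Pparg was 8.43 ± 0.04 log2 CPM in cold brown, against 7.65 ± 0.36 log2 CPM in warm white (SD; 0.78 ± 0.13) and Cebpa was 9.88 ± 0.09 log2 CPM in cold brown, against 11.35 ± 0.24 log2 CPM in warm white (SD; -1.47 ± 0.11).

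Interferon response genes were lower in cold brown almost without exception. Of 34 measured genes 32 were lower and 2 higher, against 45.2% and 40.4% of all rows, with a median log2 fold change of -4.07, and -2.52 with 1 CPM added. In 33 of the 34 the groups did not overlap, against 75.7% of all rows. Psmb9, a subunit of the immunoproteasome that trims antigens, had -0.04, -1.02, -0.43, -0.94 and 0.72 log2 CPM in the cold brown libraries, against 5.76, 5.76, 5.96, 5.80 and 5.60 log2 CPM in the warm white libraries (-6.12 ± 0.24). Tap1, the peptide pump of antigen presentation, had 3.20, 2.98, 3.09, 3.26 and 3.45 log2 CPM in the cold brown libraries, against 6.88, 7.0, 6.90, 6.82 and 6.52 log2 CPM in the warm white libraries (-3.63 ± 0.10). Gbp3, an interferon-induced GTPase, had 2.71 to 3.16 log2 CPM in cold brown, against 5.69 to 6.18 log2 CPM in warm white (-3.0 ± 0.13), and Bst2, the antiviral tetherin, had 2.38 to 3.17 log2 CPM in cold brown, against 5.86 to 6.18 log2 CPM in warm white (-3.24 ± 0.14). The higher members were Ifi27, an interferon-induced mitochondrial protein, at 9.95 to 10.03 log2 CPM in cold brown, against 8.19 to 8.75 log2 CPM in warm white (1.56 ± 0.09), and Dhx58, a viral RNA sensor, at 3.67 to 4.17 log2 CPM in cold brown, against 3.25 to 3.43 log2 CPM in warm white (0.51 ± 0.13). The Dhx58 call was lost within batch 2 (0.39, adjusted p = 0.0547). Macrophage markers were lower too between the extremes, with 10 of 11 lower and 0 higher, and the summed levels given above. Of their defining genes Csf1r was 0.51 ± 0.47 log2 CPM in cold brown, against 3.25 ± 0.67 log2 CPM in warm white (SD), and the part of immune cells in the interferon result was not tested.

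The promoters of Gbp3 and Bst2 are shown because both hold the core of the interferon-stimulated response element, GAAA followed by any 2 bases and again GAAA, on either strand. The windows are of the same kind as above, Gbp3 at chr3:142559794-142560093, plus strand and Bst2 at chr8:71537423-71537722, minus strand, with matches in capitals. Each holds 2 matches, the first of which begins at -45 relative to the start in Gbp3 and at -130 in Bst2. Matches may overlap and then form 1 run of capitals. Of the 32851 windows 3.44% hold the core.
Gbp3: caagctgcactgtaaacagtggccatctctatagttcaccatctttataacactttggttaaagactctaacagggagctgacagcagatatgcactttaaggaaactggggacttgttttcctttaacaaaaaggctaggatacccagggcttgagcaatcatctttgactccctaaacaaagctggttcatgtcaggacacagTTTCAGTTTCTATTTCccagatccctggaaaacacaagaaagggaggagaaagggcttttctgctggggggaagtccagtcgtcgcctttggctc
Bst2: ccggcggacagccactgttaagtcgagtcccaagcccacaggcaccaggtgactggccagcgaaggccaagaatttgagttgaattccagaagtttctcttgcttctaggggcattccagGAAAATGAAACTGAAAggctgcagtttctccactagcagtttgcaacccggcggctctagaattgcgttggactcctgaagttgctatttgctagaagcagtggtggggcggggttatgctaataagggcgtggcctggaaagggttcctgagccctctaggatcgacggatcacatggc

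Genes of the extracellular matrix were lower. Of 42 measured genes 37 were lower and 4 higher, with a median of -3.18. Adamts5, a matrix protease, had 1.63, 1.61, 1.44, 1.57 and 1.84 log2 CPM in the cold brown libraries, against 8.74, 9.11, 9.61, 9.27 and 10.09 log2 CPM in the warm white libraries (-7.75 ± 0.21). Col5a2, a fibrillar collagen, had 1.82 to 2.68 log2 CPM in cold brown, against 9.10 to 9.87 log2 CPM in warm white (-7.17 ± 0.17), Col15a1, a collagen of basement membranes, had 0.06 to 1.49 log2 CPM in cold brown, against 7.85 to 8.52 log2 CPM in warm white (-7.34 ± 0.23), and Lamc1, a laminin chain, had 7.11 to 7.25 log2 CPM in cold brown, against 9.56 to 9.81 log2 CPM in warm white (-2.51 ± 0.07). The higher members were Npnt, an integrin ligand, at 5.32 to 5.46 log2 CPM in cold brown, against -5.67 to 0.83 log2 CPM in warm white (6.86 ± 0.71, and 4.70 with 1 CPM added), the basement membrane collagen Col4a5 at 0.92 ± 0.14, Sparcl1 at 1.29 ± 0.40 and the cross-linking enzyme Loxl1 at 0.58 ± 0.21. Sparcl1 was high in cold brown 1 and 5, and without both its value was 0.51 (adjusted p = 0.159). The Loxl1 call was lost without warm white 3 (adjusted p = 0.0609) or warm white 5 (0.0509), and without cold brown 1 and 5 together 36 matrix genes were lower and 3 higher.

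Fibroblast and preadipocyte markers were mostly lower too, with 14 of 17 lower and 1 higher. This list shares members with the matrix list, Col3a1 and Col1a2 among them, so the lists are not separate readings. The summed level of the fibroblast and preadipocyte markers was 170 to 335 CPM in cold brown and 12487 to 14986 CPM in warm white. Much of it was Gsn, the actin-severing protein gelsolin, with 5.72, 5.41, 5.38, 4.92 and 5.38 log2 CPM in the cold brown libraries, against 13.03, 13.27, 13.15, 13.25 and 13.23 log2 CPM in the warm white libraries (-7.82 ± 0.16). Col3a1 was lower at -6.96 ± 0.23, Dpt, dermatopontin, at -7.73 ± 0.28 and Col1a2 at -6.44 ± 0.24. The defining precursor markers were present at lower values, Pdgfra at 1.29 ± 0.40 log2 CPM in cold brown, against 4.23 ± 0.46 log2 CPM in warm white (SD) and Pi16 at -0.63 ± 0.73 log2 CPM in cold brown, against 2.98 ± 0.69 log2 CPM in warm white (SD). Gas1, a membrane protein that binds hedgehog, was higher, at 6.41 to 7.21 log2 CPM in cold brown, against 1.98 to 2.28 log2 CPM in warm white (4.50 ± 0.16). The part of precursor cells in the matrix result was not tested.

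BMP and TGF-beta signalling, which steers fat cell fate and fibrosis, had 26 of 33 genes lower and 4 higher. The ligand gene Inhbb, a subunit of activin, had -0.05, -0.79, -0.08, -0.63 and -0.19 log2 CPM in the cold brown libraries, against 7.96, 8.28, 8.14, 7.92 and 8.21 log2 CPM in the warm white libraries (-8.45 ± 0.27), and Chrd, a BMP antagonist, had -3.79 to -2.0 log2 CPM in cold brown, against 4.66 to 5.21 log2 CPM in warm white (-8.06 ± 0.32). The receptor Acvr2b was lower at -4.08 ± 0.17 and the co-receptor Tgfbr3 at -1.82 ± 0.09. The higher members were Bmp8b, a ligand made by active brown fat, at 5.74 to 6.39 log2 CPM in cold brown, against -5.54 to -1.24 log2 CPM in warm white (6.0 with 1 CPM added), the target Id2 at 4.65 to 5.47 log2 CPM in cold brown, against 0.31 to 1.0 log2 CPM in warm white (4.47 ± 0.23), and the receptors Tgfbr2 at 1.98 ± 0.12 and Bmpr2 at 0.59 ± 0.07.

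The list of genes that guide or mark nerves had 10 of 20 higher and 8 lower. S100b, a calcium-binding protein that brown fat secretes to attract sympathetic fibres, had 7.70, 8.14, 8.19, 8.35 and 8.14 log2 CPM in the cold brown libraries, against 0.49, -0.24, 0.10, -0.68 and 0.54 log2 CPM in the warm white libraries (8.06 ± 0.18). The semaphorin co-receptor Nrp2 was higher by 5.54 ± 0.15 and the neurotrophin receptor Ntrk3 by 4.01 ± 0.22. Slit3 was lower at -5.18 ± 0.19, Slit2 at -2.65 ± 0.30, Sema3a at -5.84 to -2.25 log2 CPM in cold brown, against 0.57 to 2.59 log2 CPM in warm white (-5.52 ± 0.69, and -2.14 with 1 CPM added) and Efna5 at -1.53 ± 0.12. Of 4 measured markers of Schwann cells and neurons, which include S100b, 1 was higher and 2 lower, with Pmp22, a myelin gene, lower at -0.92 ± 0.15. Their summed level was 341 to 435 CPM in cold brown and 126 to 166 CPM in warm white.

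The markers of vessels and muscle were read with the libraries that stand apart. Of 17 endothelial markers 5 were higher, 2 lower and 10 did not pass, and without cold brown 1 and 5 the counts were 3 higher and 7 lower. Leaving out cold brown 1 or cold brown 5 alone gave 4 lower, and leaving out cold brown 2 or cold brown 3 gave 1 lower. Pecam1 had 4.83, 2.69, 2.86, 3.05 and 4.82 log2 CPM in the cold brown libraries, against 2.13, 2.65, 2.74, 2.89 and 2.28 log2 CPM in the warm white libraries (1.11 ± 0.37), and without cold brown 1 and 5 it stood at 0.33 (adjusted p = 0.289). Eng was higher by 2.38 ± 0.39, Cdh5 by 1.77 ± 0.39 and Emcn by 3.67 ± 0.90 (1.24 with 1 CPM added), and Nos3 was lower at -1.15 ± 0.13 and Vwf at -1.46 ± 0.54. Without both libraries Eng stood at 1.61, Cdh5 at 0.95, Emcn at 2.87 and Vwf at -2.49. The Emcn call was lost within batch 2 (1.10, adjusted p = 0.14). The Vwf call was lost without cold brown 2 (adjusted p = 0.0573) or cold brown 3 (0.0564).

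Of 10 markers of smooth muscle and pericytes 3 were higher and 5 lower, and without cold brown 2, 3 or 4 or warm white 3 the number lower was 3. Rgs5 had 7.41, 4.16, 4.71, 4.65 and 7.56 log2 CPM in the cold brown libraries, against 2.37, 2.97, 3.51, 3.26 and 3.08 log2 CPM in the warm white libraries (2.66 ± 0.57), and without cold brown 1 and 5 it stood at 1.47 (adjusted p = 0.00409). Kcnj8, at 2.68 ± 0.70, stood at 1.38 without them (adjusted p = 0.0426), Abcc9, at -2.73 ± 0.52, at -3.93, and Myh11, at -1.21 ± 0.47, at -2.29. The Myh11 call was lost without any of cold brown 2, 3 or 4 or warm white 3, with adjusted p of 0.062 to 0.089. Des, desmin, was 6.83 to 7.25 log2 CPM in cold brown, against 1.67 to 4.28 log2 CPM in warm white (4.65 ± 0.31), Mcam was lower at -5.69 ± 0.20 and Cspg4 at -0.51 ± 0.10.

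Of 14 skeletal muscle markers 10 were lower and 2 higher, and without warm white 2 the count lower was 8. With 1 CPM added it was 6, and within batch 2 it was 5. The higher ones were Mb, the oxygen store myoglobin, with 7.65, 7.97, 7.59, 7.78 and 7.29 log2 CPM in the cold brown libraries, against -1.54, -0.89, -2.04, -2.99 and -1.30 log2 CPM in the warm white libraries (9.41 ± 0.36), and Myl1, a myosin light chain, at 4.90 to 5.06 log2 CPM in cold brown, against 2.54 to 4.42 log2 CPM in warm white (1.70 ± 0.23). Other contractile genes were low in cold brown. Tnnt3, a troponin, was at the floor in every cold brown library and had 1.26, 5.41, -0.26, -1.03 and -0.07 log2 CPM in warm white. Ttn, titin, was -3.04 to -0.72 log2 CPM in cold brown, against 1.77 to 8.47 log2 CPM in warm white (-5.79 ± 0.88) and Tnnc2 was -5.34 to -1.90 log2 CPM in cold brown, against 1.95 to 6.74 log2 CPM in warm white (-6.33 ± 0.80, and -3.12 with 1 CPM added), and without warm white 2 they stood at -4.64 and -5.42. Of 3 measured red blood cell genes 2 were higher, Hbb-bs at 3.96 ± 0.31 and Hba-a2 at 4.20 ± 0.64 (1.84 with 1 CPM added), with summed levels of 9.81 to 21.2 CPM in cold brown and 2.35 to 7.71 CPM in warm white. No gene of the lymphocyte and mammary lists was measured.

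Of the 11 macrophage markers 10 were lower, and Lyz2, lysozyme, missed the threshold (-0.57 ± 0.41, adjusted p = 0.196). Cd14 was 1.30 to 1.92 log2 CPM in cold brown, against 4.53 to 5.80 log2 CPM in warm white (-3.76 ± 0.26), Cd163 was 0.23 to 1.24 log2 CPM in cold brown, against 3.92 to 4.70 log2 CPM in warm white (-3.47 ± 0.22), Mrc1 was lower at -3.13 ± 0.24 and Ctss at -3.30 ± 0.36.

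Some abundant genes of fat cells were not called. Limma left 1670 rows uncalled, and in 1721 rows the 95% interval of the log2 fold change lay within 0.5 of 0 on both sides. The following were chosen after their values were seen. Adipor2, a receptor for adiponectin, was 10.54 ± 0.08 log2 CPM in cold brown, against 10.50 ± 0.20 log2 CPM in warm white (SD; 0.05 ± 0.10, interval -0.16 to 0.25). Lpl, the lipase that takes up fat from blood, was 11.92 ± 0.10 log2 CPM in cold brown, against 12.05 ± 0.05 log2 CPM in warm white (SD; -0.13 ± 0.09, interval -0.33 to 0.06). Scd1, a desaturase, was 13.88 ± 0.24 log2 CPM in cold brown, against 13.60 ± 0.42 log2 CPM in warm white (SD; 0.29 ± 0.21, interval -0.15 to 0.73). The scaling decided some of these values. After quantile normalization Adipor2 stood at -0.21 (adjusted p = 0.036), and Lpl, once libraries shared a common total, stood at -0.27 (0.00877).

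The fatty acid uptake list to which Lpl belongs had 9 of 17 genes higher, 5 lower and 3 not passing. The lysosomal lipase Lipa was higher by 3.88 ± 0.13, the lipase maturation factor Lmf1 by 2.55 ± 0.11 and the lipoprotein receptor Vldlr by 1.64 ± 0.09. Ptrf, Cav2 and Cav1 code for proteins of caveolae, membrane pits dense in white fat cells. Ptrf had 7.94, 7.78, 7.58, 7.89 and 8.06 log2 CPM in the cold brown libraries, against 10.32, 10.44, 10.35, 10.26 and 10.58 log2 CPM in the warm white libraries (-2.54 ± 0.09), Cav2 was lower at -2.27 ± 0.11 and Cav1 at -1.17 ± 0.10.

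The remaining 3 groups of libraries show where each of these genes sat between the extremes. A group was compared with the midpoint of cold brown and warm white in the same limma fit, a contrast that does not reuse the difference between the extremes. Over all rows 66.4% of warm brown, 57.9% of cold beige and 72.8% of warm beige values were called apart from the midpoint in either direction. Position is 100% at the cold brown mean and 0% at the warm white mean. For the 2640 genes at least 2-fold higher in cold brown, warm brown was nearer cold brown in 1555 and nearer warm white in 420, with a median position of 71.1%. Cold beige was nearer cold brown in 1788 and nearer warm white in 109 (77.6%), and warm beige in 159 and 2088 (4.5%).

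For the 3161 genes at least 2-fold lower in cold brown, the warm brown and cold beige libraries were divided between both sides. Warm brown was nearer cold brown in 1143 and nearer warm white in 843 (55.1%), cold beige in 1095 and 852 (55.3%), and warm beige in 51 and 2673 (3.6%). Several of these counts moved by over 1.5 times with the processing. For the genes higher in cold brown, cold beige nearer warm white was 232 after quantile normalization and 22 within batch 1. For the genes lower, warm brown nearer warm white was 428 with 5 CPM added.

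Single genes parted from these medians. Ucp1 had means of 12.15 in cold brown, 8.84 in warm brown, 11.34 in cold beige, 1.03 in warm beige and -2.82 in warm white (log2 CPM). Cidea had 10.49 in cold brown, 9.80 in warm brown, 10.14 in cold beige, 7.33 in warm beige and 2.57 in warm white, so that warm beige was nearer cold brown for this gene. Elovl3 had 9.35 in cold brown, -0.37 in warm brown, 8.83 in cold beige, -4.73 in warm beige and -5.25 in warm white, and warm brown was nearer warm white. Agpat2 had 11.18 in cold brown, 7.80 in warm brown, 10.54 in cold beige, 6.04 in warm beige and 6.97 in warm white, again with warm brown nearer warm white. Slc27a2 had 9.34 in cold brown, 8.54 in warm brown, 8.32 in cold beige, 5.32 in warm beige and -3.29 in warm white, with all 3 groups nearer cold brown. The gene Bmp8b had 6.19 in cold brown, -1.08 in warm brown, 4.13 in cold beige, -2.71 in warm beige and -3.48 in warm white, with warm brown and cold beige on opposite sides of the midpoint.

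Among the genes lower in cold brown, the middle groups fell in different orders. Lep had 1.52 in cold brown, 7.78 in warm brown, 5.97 in cold beige, 9.29 in warm beige and 10.34 in warm white. C4b had -0.21 in cold brown, 5.26 in warm brown, 6.47 in cold beige, 10.30 in warm beige and 11.27 in warm white, and Retn had 0.29 in cold brown, 1.97 in warm brown, 6.70 in cold beige, 8.10 in warm beige and 9.35 in warm white. For Retn warm brown was nearer cold brown. Adcy5 had 0.81 in cold brown, 7.12 in warm brown, 6.68 in cold beige, 9.39 in warm beige and 9.33 in warm white, with warm brown and cold beige both nearer warm white. Hoxc10 had -5.79 in cold brown, -5.79 in warm brown, 4.70 in cold beige, 4.20 in warm beige and 4.65 in warm white, and Zic1, on the other side, had 4.14 in cold brown, 3.82 in warm brown, -5.78 in cold beige, -5.80 in warm beige and -5.77 in warm white. For Hoxc10 and Zic1 both brown groups lay together and all 3 inguinal groups lay together. Other positional genes did not divide in that way. Hoxd8 had 3.46 in cold brown, 4.97 in warm brown, 2.16 in cold beige, 3.28 in warm beige and 5.50 in warm white, and Hoxd9 had -2.82 in cold brown, -0.78 in warm brown, -1.25 in cold beige, 1.72 in warm beige and 2.42 in warm white.

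Gene lists were counted in the same way. Of the 37 complex I genes 35 were nearer cold brown in warm brown, 35 in cold beige and 1 in warm beige. Of the 18 genes of fatty acid synthesis 4 were nearer cold brown and 7 nearer warm white in warm brown, against 14 and 0 in cold beige. Of the 34 interferon genes 2 were nearer cold brown and 15 nearer warm white in warm brown, 4 and 6 in cold beige, and 0 and 33 in warm beige. The 11 macrophage markers differed from them, with 3 nearer cold brown and 0 nearer warm white in warm brown. In cold beige the macrophage counts were 1 and 9, and in warm beige 0 and 10. Of the 42 matrix genes 29 were nearer cold brown and 3 nearer warm white in warm brown, 13 and 22 in cold beige, and 4 and 33 in warm beige. The differences between lists were not tested.

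**Figure D5:**
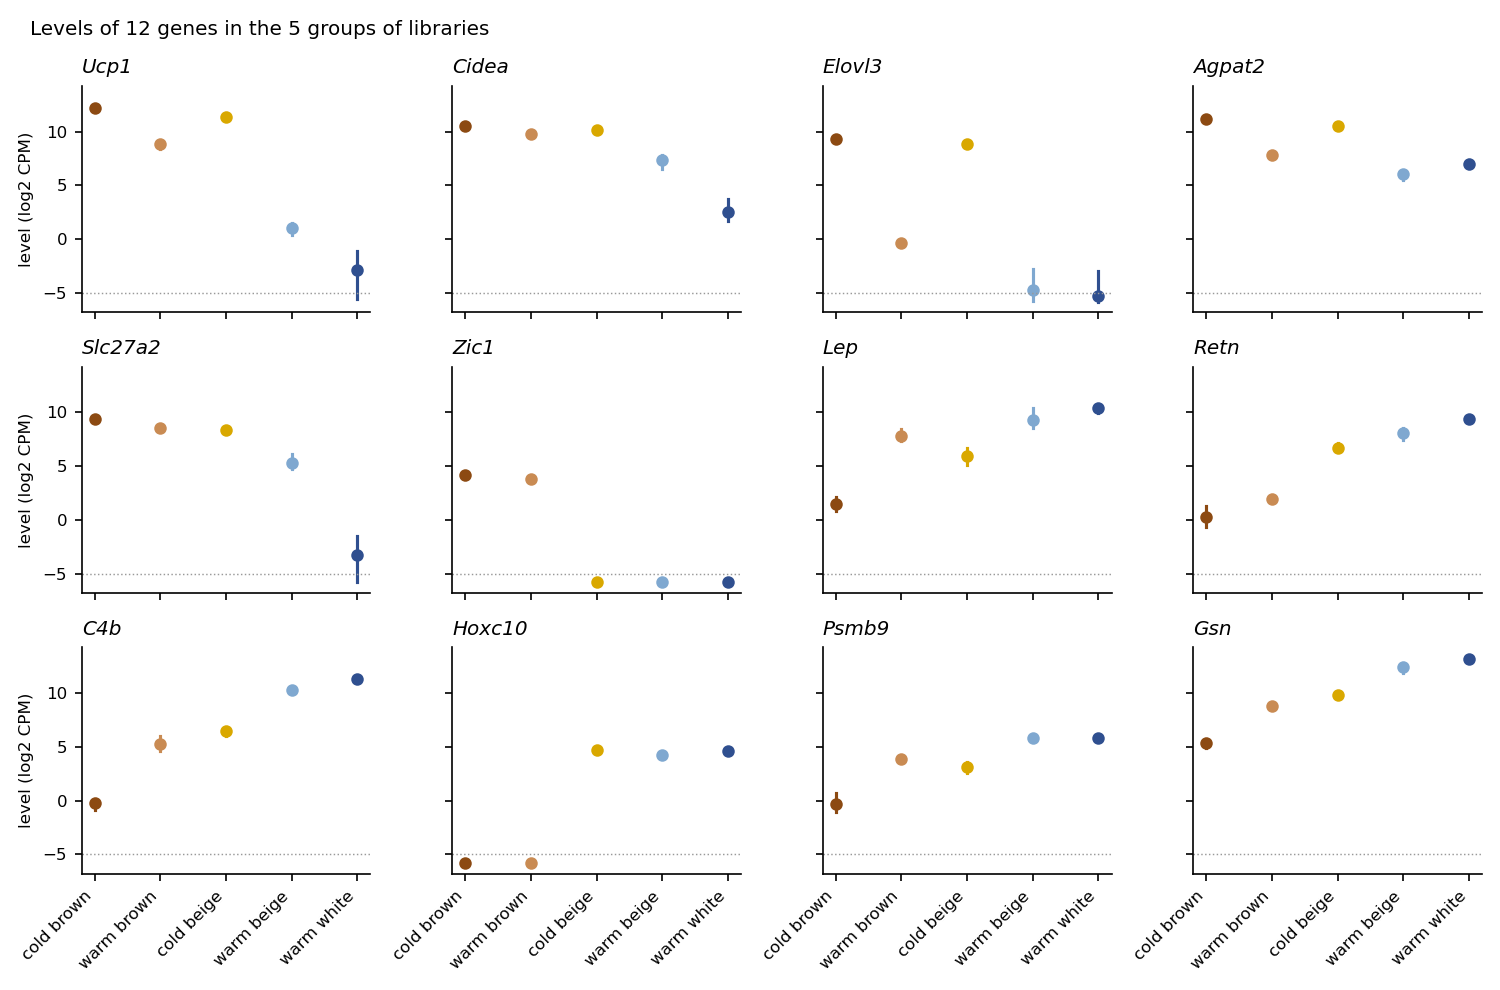
Mean level (log2 CPM) of 12 genes in each of 5 groups, which stand from left to right as cold brown (n = 5), warm brown (n = 5), cold beige (n = 4), warm beige (n = 3) and warm white (n = 5), with bars from the lowest to the highest library. The dotted line is the floor, Zic1 and Hoxc10 divide by depot, and Elovl3 and Agpat2 are low in warm brown.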

How the data were processed

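Ribosomes carrying GFP were captured from homogenised fat with an antibody, per the labels' protocols. After Ribo-Zero depletion, Nextera XT libraries were run on a HiSeq2500. The submitters' processing notes name mm10 and the tools featureCounts, HISAT2, edgeR and Picard, without roles or versions. The deposited values are log2 CPM, as the name and the values of the table show. The use of strand is not stated. The depth is unknown, so no interval for counting error is given.

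Limma 3.58.1 in R 4.3.3 was fitted to all 22 mRNA libraries in 5 groups with an intensity trend, and was checked on simulated data. The fit leaves 17 residual degrees of freedom, which do not count the batch effect taken out before deposit. Standard errors may therefore be slightly too small. With a batch term in the fit 9856 rows were called. P-values were adjusted over all 11603 rows by Benjamini-Hochberg, with a threshold of 0.05. Batches were read from the values of rows at the floor. In rows that share a symbol, the row with the highest mean was used. Named genes were the 7 fixed ones, the 12 largest and the 3 most abundant with the other group at the floor in each direction, the 4 smallest adjusted p in each direction per list, and the related pairs; some genes it names are not reported here. Genes outside this rule, Tap2 and Csf1r among them, were chosen after their values were seen. The members and lists were chosen with earlier results of these data known, and Pmp22, a myelin gene, was taken off the peroxisome list after its values were seen. Alternatives covered added CPM, scaling, a filter of 5 CPM in 3 libraries, weights, batch, pairing and left-out libraries. Gene positions and promoters are from RefSeq GRCm38.p6.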

Additional observations from a re-analysis of the deposited data

Results flagged for a closer look

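In 584 groups of 5 libraries examined over the genes printed, 33 held a library far from the other 4, and chance flags about 1 group in 20. Values are log2 CPM, with the range of the other 4 libraries of the same group after each.

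In the cold brown libraries, C2 had -3.57 in cold brown 1 (others -1.86 to -1.43), Gamt had 0.56 (others -0.56 to -0.32) and Zic1 had 3.80 (others 4.16 to 4.30) in the same library. Prr16 had -4.12 in cold brown 3 (others -5.91 to -5.65). In cold brown 4, Pex3 had 7.06 (others 6.88 to 6.92) and Slit2 had 0.66 (others -0.51 to -0.22). In cold brown 5, Abcd2 had 5.28 (others 4.77 to 4.91).

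Warm white 2 held 10 of the values. The muscle genes Atp2a1 at 7.18 (others 4.33 to 4.80), Tnnc2 at 6.74 (others 1.95 to 2.53), Eno3 at 4.10 (others 2.78 to 2.85) and Des at 4.28 (others 1.67 to 2.31) stood high there, beside the summed muscle markers given above. Mcu had 4.17 (others 3.58 to 3.75) and Arhgef19 had -1.05 (others -5.99 to -5.57). Gk had 3.10 (others 3.47 to 3.56), Hoxa3 had 0.69 (others 1.72 to 2.13), Hba-a2 had -5.65 (others -2.06 to -1.28) and Esrrg had -5.61 (others -1.40 to -0.03).

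In warm white 1, Gnas had 9.54 (others 9.27 to 9.33) and Col3a1 had 11.24 (others 11.52 to 11.61). In warm white 3, Hoxa9 had 4.94 (others 4.34 to 4.48) and Tgfbr3 had 8.68 (others 9.08 to 9.19). In warm white 4, Elovl3 had -2.99 (others -5.84 to -5.73), Kng1 had -3.24 (others -5.97 to -5.59) and Lgr6 had -3.42 (others -6.16 to -5.41). The same library had 12.14 for Lpl (others 12.02 to 12.05), 6.50 for Pmp22 (others 5.96 to 6.08), 3.12 for Lhx8 (others 3.62 to 3.81) and 2.33 for Hoxb7 (others 3.21 to 3.52). In warm white 5, Kng2 had -1.96 (others -6.01 to -5.55), Dhrs9 had -1.42 (others -5.95 to -5.61) and Trim66 had -5.37 (others -2.02 to -1.38). It also had 5.00 for Letmd1 (others 5.14 to 5.19) and 1.20 for Hoxb6 (others 1.79 to 1.90).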

How the results depend on the processing

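Over the 24 alternatives the number of rows called ran from 8508 within batch 1 to 9964 with library weights, and leaving out 1 library gave 9783 to 9884. The thermogenic list kept 31 members higher and 2 lower when any 1 library was left out. Median-of-ratios scaling put 49.9% of calls on the higher side, and totals without the 20 most abundant genes 41.3%. Of 1680 list counts under an alternative, 35 moved by over 1.5 times, among them the cytosolic ribosome within batch 1 (15 higher and 17 lower). Same-numbered libraries of the groups had correlations of deviations from -0.246 to -0.063 and did not pair, and the replicate block gave 9914 calls. Over 292 genes printed, 25 changed in some alternative. Calls were lost within batch 1 for Adcy4, Ebp, Hoxa7, Hoxc4, Loxl1, Myh11, Slc2a1, Srebf2, Thrb and Vwf, and within batch 2 for Dhx58, Emcn, Ftl1, Hoxc4, Pecam1, Slc2a1, Sparcl1 and Srebf2. Median-of-ratios scaling lost Ebp, Ftl1, Slc2a1 and Srebf2, and quantile normalization lost Adcy4, Hoxa7, Loxl1, Myh11, Slc2a1 and Vwf. A common total, and totals without the 20 most abundant genes, each lost Hoxc4, Loxl1 and Thrb. With 5 CPM added Myh11, Ryr1 and Vwf were lost, and in a fit of only the 10 libraries Myh11 was. Leaving out cold brown 1 and 5 together lost Hoxc4, Pecam1, Slc2a1 and Sparcl1, and calls lost by leaving out 1 library are given beside each gene. The cause was not tested.

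Counts of genes nearer one extreme moved most. The runs within a batch were chosen for these counts after the data were seen. For genes higher in cold brown within batch 1, 213 were nearer warm white in warm brown, 1155 nearer cold brown and 22 nearer warm white in cold beige, and 72 nearer cold brown in warm beige. For genes lower within batch 1, 678 were nearer cold brown and 454 nearer warm white in warm brown, 534 and 329 in cold beige, and 16 and 1758 in warm beige. Within batch 2, 72 genes higher in cold brown were nearer warm white in cold beige. With 5 CPM added, 52 of the higher genes were nearer cold brown in warm beige, and of the lower genes 428 in warm brown, 230 in cold beige and 1619 in warm beige were nearer warm white. After quantile normalization, 232 higher genes in cold beige, 504 lower genes in warm brown and 359 in cold beige were nearer warm white, and 94 lower genes in warm beige were nearer cold brown. Median-of-ratios scaling gave 175 higher genes nearer warm white in cold beige.

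Genes near 0 changed sign. With a common total Adipor2 stood at -0.091 and Hoxb3 at -0.001. With totals without the 20 most abundant genes they stood at -0.133 and -0.043, and Hoxa3 at -0.037. After quantile normalization Adipor2 stood at -0.21, Lpl at 0.076, Lyz2 at 0.30 and Scd1 at 0.00. Within batch 2 Adipor2 stood at -0.087 and Scd1 at -0.005. Leaving out 1 library at a time, Adipor2 ran from -0.023 (without warm white 5) to 0.102, and Hoxa3 from -0.119 (without warm white 2) to 0.241. Hoxb3 stood at -0.053 without cold brown 1 and 5.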

Other observations

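The major histocompatibility complex on chromosome 17 holds several of the genes named above, among them C4b, C2, Cdsn, Tap1 and Psmb9. This was seen in the values and the region was chosen afterwards. From the start of H2-K1 to the end of Cdsn in GRCm38.p6 (chromosome 17, 33996012 to 35557180), 34 of 53 measured genes were lower in cold brown and 13 higher, with a median log2 fold change of -1.11. On the rest of chromosome 17, 211 of 472 were lower and 201 higher, with a median of -0.10. Lower genes of class I presentation included H2-D1 at 6.85 ± 0.20 log2 CPM in cold brown, against 11.58 ± 0.12 log2 CPM in warm white (SD; -4.74 ± 0.10), H2-K1 at 7.48 ± 0.12 log2 CPM in cold brown, against 11.18 ± 0.11 log2 CPM in warm white (SD; -3.71 ± 0.08), the pump subunit Tap2 at -3.27 ± 0.09 and the immunoproteasome subunit Psmb8 at -5.66 ± 0.32. The class I gene H2-Q10 was higher, at 7.67 ± 0.32 log2 CPM in cold brown, against 6.64 ± 0.23 log2 CPM in warm white (SD; 1.03 ± 0.16). The complement gene Cfb was lower, at 1.19 ± 0.20 log2 CPM in cold brown, against 7.78 ± 0.23 log2 CPM in warm white (SD; -6.59 ± 0.22). The 13 higher genes also included the acyltransferase Agpat1 at 8.39 ± 0.10 log2 CPM in cold brown, against 6.10 ± 0.15 log2 CPM in warm white (SD; 2.29 ± 0.08) and the retinoid receptor Rxrb at 1.11 ± 0.08. Of the measured class II genes, H2-Eb1 was higher, at 4.62 ± 0.04 log2 CPM in cold brown, against 3.25 ± 0.34 log2 CPM in warm white (SD; 1.37 ± 0.16), and H2-Aa was lower, at -0.35 ± 0.59 log2 CPM in cold brown, against 1.57 ± 0.56 log2 CPM in warm white (SD; -1.92 ± 0.28). Reads of related H2 genes may be split between copies.

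The spread between libraries was larger in warm white. The median SD over rows was 0.13 log2 units in cold brown and 0.20 in warm white, and 69.9% of rows had the larger SD in warm white.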
